A study of Mus musculus with 21 samples.

Results

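The voltage-gated calcium channel alpha1 subunits form the pores through which depolarized cells take up calcium. The genes described here were *Cacna1a*, *Cacna1b*, *Cacna1c*, *Cacna1d*, *Cacna1e*, *Cacna1f*, *Cacna1g*, *Cacna1h* and *Cacna1i*, chosen by symbol from the Ensembl identifiers of the count table, which makes 9 of the 52550 genes listed. Bulk RNA-Seq was performed on spiral ganglion neurons (SGNs, the neurons that carry sound signals from the cochlea to the brain) of 5 ages, namely the embryonic age E15.5 and the postnatal ages P1, P8, P14 and P30, on inner ear hair cells (HCs) of age P12 and on cochlear glia of age P8, with 3 libraries per group and 21 in all. The labels give the strain as C57BL/6 and describe every library as tdTomato-labelled cells sorted by hand, whereas the study's methods give hand picking for SGNs and glia and fluorescence-activated sorting for HCs. The labels give 69 to 195 cells per SGN library, 86 to 125 per glial library and about 1200 per HC library. According to the study's methods, SGNs came from ShhCre/+; Rosa26-CAG-loxp-stop-loxp-tdTomato/+ mice, HCs from Atoh1-CreER+ mice and glia from vGlut3-iCreER/+ mice. The HC and glial lines carried the same tdTomato reporter and received tamoxifen after birth. The HC libraries mixed cochlear and vestibular HCs. By those methods, the way cells were isolated differs along with cell type in every HC comparison, and the part of the isolation cannot be told apart from that of the cell type. The vGlut3 line also labels inner hair cells, and only the ganglion area was dissected for glia. HCs and glia were each sampled at a single age, so cell type and age change together in every comparison except that of P8 SGNs with P8 glia.

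Each alpha1 protein holds 4 homologous repeats around a pore, and it sets the voltage range and the drug sensitivity of the channel. The Cav1 class (L-type) includes *Cacna1c*, *Cacna1d* and *Cacna1f*; *Cacna1d* encodes the channel that drives transmitter release from inner hair cells, and mice without it are deaf. The Cav2 class holds the presynaptic channels of most neurons, *Cacna1a* (P/Q-type) and *Cacna1b* (N-type), together with *Cacna1e* (R-type). The Cav3 class (*Cacna1g*, *Cacna1h* and *Cacna1i*, T-type) opens at more negative voltages and passes small, transient currents.

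The T-type class differs from the other classes in the pore itself. Calcium is selected by a ring of acidic residues, 1 from each repeat. In the longest open reading frame of each member in GENCODE M21 on GRCm38, 30 of the 36 codons of this ring encoded glutamate and 6 encoded aspartate. The 6 aspartate codons were those of repeats III and IV of the 3 Cav3 genes. The sites were found by short protein motifs. Those for repeats I and II required glutamate, and those for repeats III and IV allowed glutamate or aspartate only. The 27 coding bases around the codon of repeat IV, which lie within a single exon in every member, are given 5′ to 3′ on the coding strand with the codon in capitals, to show how the members differ at this site.
Cacna1c, chr6:118614050-118614076, minus strand: tgtgccaccggaGAGgcctggcaggac
Cacna1d, chr14:30075944-30075970, minus strand: tgtgcaacagggGAAgcctggcaggag
Cacna1f, chrX:7629416-7629442, plus strand: tgtgccactggtGAGgcctggcaagag
Cacna1a, chr8:84611599-84611625, plus strand: agcgccacaggaGAAgcgtggcacaac
Cacna1b, chr2:24635213-24635239, minus strand: agtgccactgggGAGgcctggcatgag
Cacna1e, chr1:154425975-154426001, minus strand: agtgccacggggGAGgcttggcaggag
Cacna1g, chr11:94416415-94416441, minus strand: gtctccactggtGACaactggaatggt
Cacna1h, chr17:25377771-25377797, minus strand: gtgtccactgggGACaactggaatggg
Cacna1i, chr15:80388485-80388511, plus strand: gtctccacaggcGATaactggaatggg
GAA and GAG encode glutamate, and GAC and GAT encode aspartate. The counts below are per gene, so splice forms were not resolved. Exons of 3 members overlap an exon of a gene on the opposite strand in GENCODE M21, by 435 bases for *Cacna1a* and *Gm16183*, 589 bases for *Cacna1d* and *Chdh*, and 158 bases for *Cacna1h* and *Tpsg1*. The strand setting of the counting is not given in the sources used here, so reads from these stretches cannot be assigned to a strand. The overlapping genes had mean counts of 15.8, 221 and 1.57 per library.

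Libraries held between 10368240 and 37287489 counts on genes (median 20384100), and a gene with no counts could have had up to 3, which stood for 0.0805 to 0.289 CPM (counts scaled to the library's total). Nothing in the labels says whether replicates came from separate animals or pools, so the p-values measure the spread between these libraries, which may be technical. The SGN marker *Slc17a6*, a vesicular glutamate transporter, was at 15.1 to 246 TPM (counts divided by gene length and scaled to the library's total) in SGN libraries and at 4.92 to 8.31 in HCs, and *Lypd1* was at 14.7 to 211 TPM in SGNs and 0.514 to 1.69 in HCs. Glial replicate 1 stood apart from the other glial libraries, with 18.7 TPM of *Slc17a6* against 0.938 and 0.865, and with outer hair cell markers at 10.3% of the HC mean against 0.859% and 0.741%. P14 replicate 1 stood apart from the other P14 libraries, with 7 hair cell markers at 7.48% of the HC mean against 1.30% and 1.61%, and 6 glial markers at 11.2% of the glial mean against 2.90% and 2.88%. Glial markers were also present in the P8 SGN libraries, at 9.39% to 17.1% of the glial mean. E15.5 replicate 2 and P14 replicate 2 had the lowest TPM of several members in their groups, and the summed alpha1 TPM was 93.6 in the former against 233 and 299 in its fellow libraries, and 24.7 in the latter against 65.1 and 76.2.

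In SGNs, 5 of the 7 alpha1 subunit genes tested differed over the ages, where 37.8% of the 15113 genes tested did. *Cacna1e*, the most abundant member at E15.5 by its mean, was called as falling at each of the first 3 steps. *Cacna1b* and *Cacna1h* fell between P1 and P8, and *Cacna1d* rose to a peak at P1 and fell again. *Cacna1c* passed the test over all ages with no single step called. Another method, edgeR, called neither the first nor the third of the *Cacna1e* steps, nor the *Cacna1h* fall. *Cacna1a* was the most abundant member by its mean from P8 on, with no change that passed a test. TPM divides by the deposited gene length, which was 25131 bases for *Cacna1e* and 21191 for *Cacna1c*, against 9089 to 12621 for the other members. The order of members by TPM and their shares of the summed TPM depend on these lengths. A difference between ages was tested with limma-voom on counts normalized by TMM (a scaling that sets most genes to no change), and a member was called when its Benjamini-Hochberg (BH) adjusted p was under 0.05 and its change over 2-fold. Of the 9 members, 7 passed the filter on low counts, and *Cacna1f* and *Cacna1i* did not. In these bulk libraries, fewer cells of a type and less RNA per cell cannot be told apart.

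**Figure D1:**
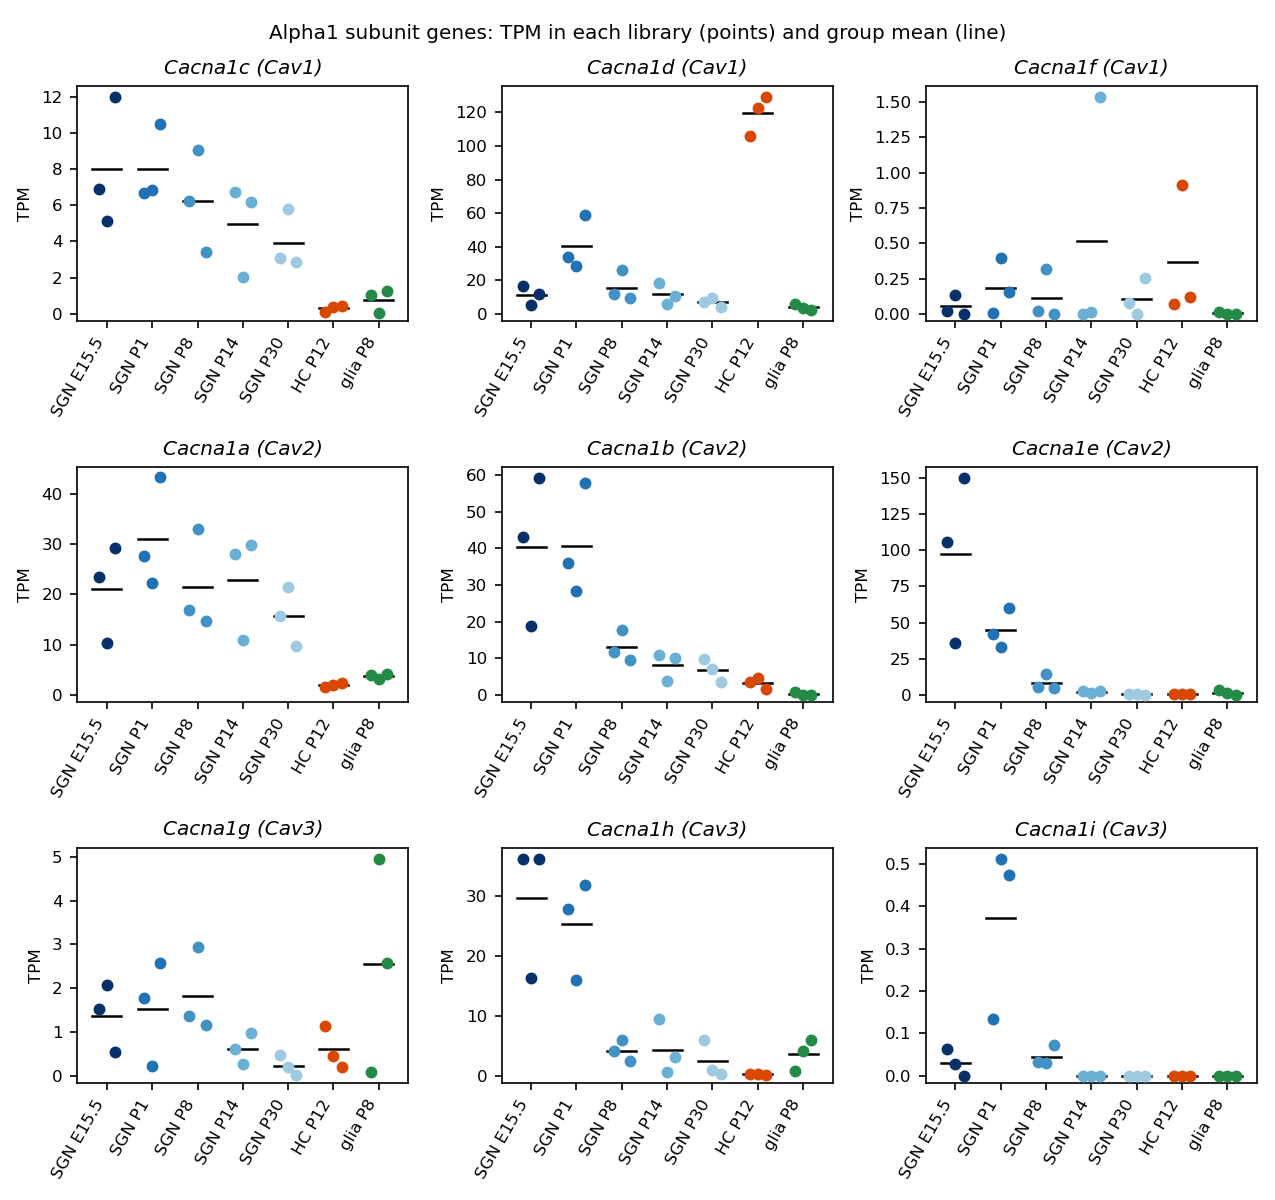
Each panel plots the TPM of 1 member (y axis, linear, each panel with its own range) in the 21 libraries, grouped by cell type and age on the x axis, with a point per library and a line at the mean of the 3 libraries. *Cacna1e* falls from a mean of 97.2 TPM at E15.5 to 0.395 at P30, *Cacna1d* peaks at P1 among SGNs and is highest in HCs at 119 TPM, and *Cacna1f* and *Cacna1i* reach no more than 1.54 TPM.

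From E15.5 to P1, 2 of the 7 tested members were called, against 8.26% of the 15113 genes tested. From P1 to P8, 4 members were called and all of them fell, where 7.44% of all genes were called and 3.15% were called as falls. Over this step, glial markers went from 0.786% to 2.41% of the glial mean at P1 to 9.39% to 17.1% at P8, and their part in the falls was not tested. From P8 to P14, 1 member was called, against 0.536% of all genes, and from P14 to P30 none was, against 0.0596%. At this last step, only *Cacna1e* had an unadjusted limma-voom p under 0.05. No member was called there by edgeR or DESeq2 either, and 1 was with sample quality weights (*Cacna1e*, -2.89, adjusted p = 0.031). Between the ends of the series, E15.5 and P30, 3 members were called and fell, where 34.6% of all genes were called and 16.2% were called as falls. From P1 to P30, 4 members fell, where 19.6% of all genes were called and 9.4% were called as falls. The median log2 fold change of the 7 members was -0.46, -1.0, -0.62 and -0.37 over the 4 successive steps, and that of all genes tested was 0.07, -0.01, -0.02 and -0.01. The mitochondrial share of counts also moved with age, from 9.57% to 13.5% at E15.5 to 16.4% to 19.5% at P1 and 17.9% to 24.2% in the later SGN libraries, and its part in these differences was not tested. Over the 5 ages as a whole, the calls were from the limma-voom F test. Adjusted p-values were 1.2e-07 for *Cacna1e*, 2.7e-06 for *Cacna1b*, 4.9e-05 for *Cacna1d*, 0.00012 for *Cacna1h* and 0.0083 for *Cacna1c*, and 0.11 for *Cacna1g* and 0.50 for *Cacna1a*.

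**Figure D2:**
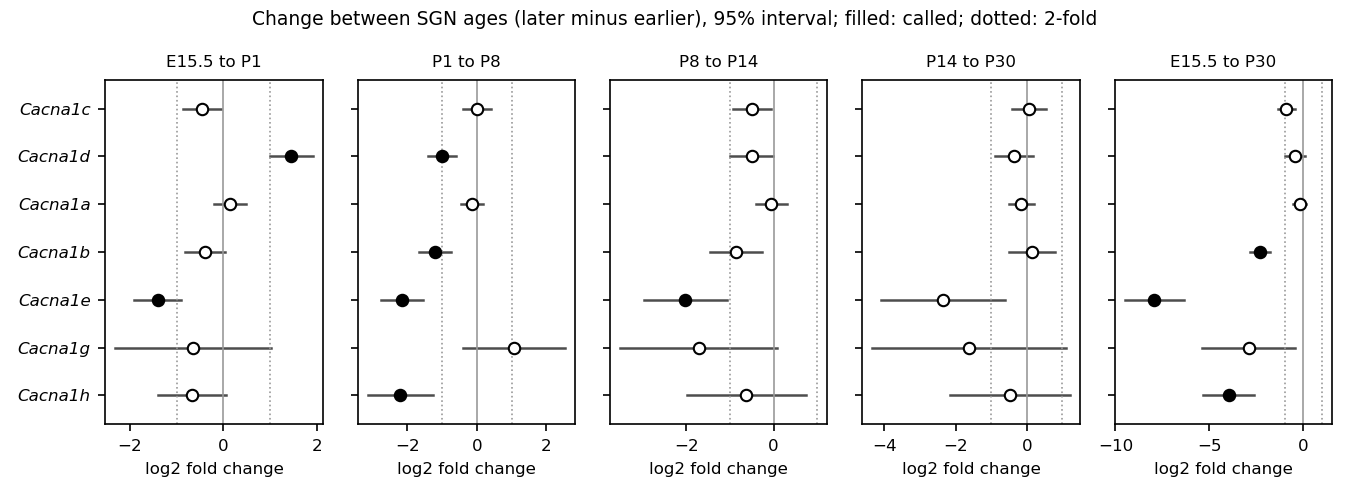
The 7 tested members are listed on the y axis, and each panel gives their log2 fold change (x axis, later age minus earlier age, each panel with its own range) with its 95% interval. Filled points were called, open points were not, and dotted lines mark 2-fold. *Cacna1e* lies left of 0 in all 5 panels, and *Cacna1d* moves from 1.45 to -1.0 between the first and second panels.

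*Cacna1e*, the R-type channel gene, showed the largest fall among the members. Its TPM was 106, 35.5 and 150.2 in the E15.5 libraries and 42.3, 33.1 and 59.9 in those of P1. It was 5.38, 14.6 and 5.03 at P8, 2.50, 1.16 and 2.51 at P14, and 0.808, 0.304 and 0.0718 in the libraries of P30. The ranges of E15.5 and P1 overlapped through E15.5 replicate 2, and those of the later neighboring ages did not. On the log2 scale it fell by 1.41 ± 0.23 (SE) from E15.5 to P1 (adjusted p = 0.0017), by 2.15 ± 0.29 from P1 to P8 (adjusted p = 0.00016) and by 2.02 ± 0.45 from P8 to P14 (adjusted p = 0.046). From E15.5 to P30 it fell by 7.93 ± 0.75 (adjusted p = 6e-07). P30 replicates 1 and 3 moved that last value the most, to -8.97 without the former and -7.24 without the latter. The fall at the third step was not called in 11 of the 15 fits that left out a library, nor by edgeR (adjusted p = 0.114) or without the filter on low counts (adjusted p = 0.578), and the first step was not called by edgeR (adjusted p = 0.0700) or DESeq2 (adjusted p = 0.0520). The P14 to P30 difference of -2.35 ± 0.83 had an adjusted p of 0.51.

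*Cacna1b* encodes the N-type channel of presynaptic terminals. It stood at 43.0, 18.7 and 59.2 TPM in the E15.5 libraries and at 35.9, 28.4 and 57.7 in those of P1. The later values were 11.7, 17.7 and 9.43 for P8, 10.8, 3.64 and 10.1 for P14, and 9.83, 7.13 and 3.45 for P30. Every library of E15.5 and P1 was above every library of the 3 later ages. The only step called was that from P1 to P8, a fall of 1.21 ± 0.22 on the log2 scale (adjusted p = 0.0021). From E15.5 to P30 *Cacna1b* fell by 2.31 ± 0.26 (adjusted p = 3.2e-06). Its differences at the other 3 steps were -0.40 ± 0.20, -0.86 ± 0.28 and 0.15 ± 0.31, with adjusted p-values of 0.22, 0.19 and 1.0.

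*Cacna1a*, the gene of the P/Q-type channel, differed little between ages. Before birth its TPM was 23.4, 10.4 and 29.2, and at P1 it was 27.6, 22.3 and 43.2. It was then 16.9, 33.1 and 14.6 (P8), 27.9, 10.9 and 29.9 (P14) and 15.7, 21.4 and 9.77 (P30). The ranges of all neighboring ages overlapped, as did those of neighbors in the order of the age means (P1, P14, P8, E15.5, P30). The ranges of P1 and P30 did not overlap, with a log2 difference of -0.34 ± 0.16 (adjusted p = 0.13). Log2 differences at the 4 steps lay between -0.16 and 0.14, and the widest 95% interval ran from -0.51 to 0.20, at P14 to P30. The spread within an age was smaller once counts were scaled by TMM in place of TPM. On reads per kilobase scaled by TMM, set to the same total as the TPM of the members, the P14 libraries ranged from 24 to 25.7 and the P30 libraries from 19.0 to 24.6.

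*Cacna1d*, the L-type gene of hair cell synapses, had a peak at P1 in SGNs. The E15.5 libraries held 16.4, 5.34 and 12 TPM of it and the P1 libraries 33.9, 28.7 and 58.7. The libraries of P8 held 11.6, 25.9 and 9.54, those of P14 18.1, 6.09 and 10.8, and those of P30 7.06, 9.47 and 4.31. All 3 libraries of P1 lay above every other SGN library. It rose by 1.45 ± 0.22 on the log2 scale from E15.5 to P1 (adjusted p = 0.00086), fell by 1.0 ± 0.20 from P1 to P8 (adjusted p = 0.0033) and fell by 1.88 ± 0.22 from P1 to P30 (adjusted p = 1.1e-05). The fall from P1 to P8 sat at the 2-fold threshold and dropped below it without P1 replicate 3 (-0.90) or P8 replicate 1 (-0.91). Between E15.5 and P30 the difference was -0.43 ± 0.25 (adjusted p = 0.18).

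Since HCs held more *Cacna1d* than SGNs, hair cell markers were measured beside it, both in TPM. In the P1 libraries, *Cacna1d* stood at 24% to 49.2% of the HC mean. The sum of 7 hair cell markers (*Myo6*, *Myo7a*, *Pou4f3*, *Gfi1*, *Otof*, *Slc17a8* and *Tmc1*) stood at 1.83% to 5.01% in the same libraries, against 0.432% to 0.935% at E15.5 and 1.00% to 1.95% at P8. The outer hair cell markers *Slc26a5* and *Ocm* summed to 12.9% to 14.8% at P1, 0.00221% to 4.90% at E15.5 and 6.64% to 13.0% at P8, and *Pou4f3* and *Ocm* were each at 0 in 1 library of E15.5. *Cacna1d* was higher, relative to HCs, than both marker sums in each P1 library. The outer hair cell sum was the higher one in P8 replicate 1 (13% against 9.69%), P14 replicate 1 (18.2% against 15.2%) and P30 replicate 1 (10.6% against 5.91%), and also in glial replicate 1 (10.3% against 5.10%). Both sums were higher at P1 than at E15.5 in every library. At P14, replicate 1 had the highest *Cacna1d* (15.2% of the HC mean) and the highest marker sums (7.48% and 18.2%). The HC mean is that of P12 cells, and hair cells of the SGN ages were not sampled. The part of hair cell RNA in the *Cacna1d* values was not tested.

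**Figure D3:**
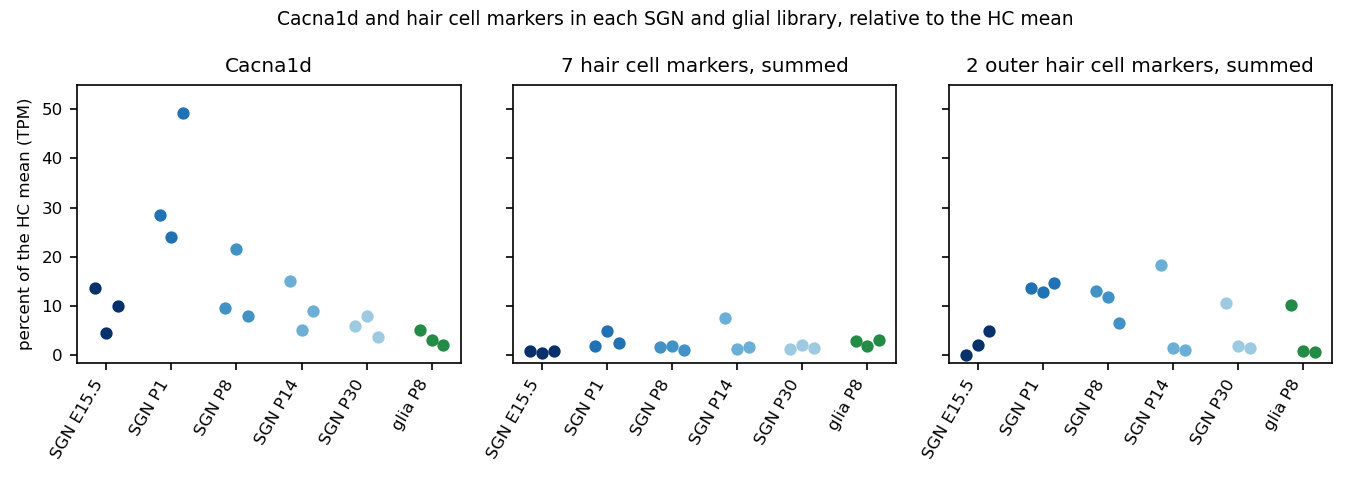
The 3 panels plot *Cacna1d*, the sum of 7 hair cell markers and the sum of 2 outer hair cell markers in each SGN and glial library (points, colored by group), as a percent of the HC mean in TPM on a shared linear y axis. The P1 points of *Cacna1d* lie between 24% and 49.2%, above the 12.9% to 14.8% of the outer hair cell markers in the same libraries.

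*Cacna1c*, the L-type gene of heart and smooth muscle that is also expressed in neurons, was present at lower levels, from 2.01 to 12 TPM over the 15 SGN libraries, and the ranges of neighboring ages overlapped. Its mean TPM was 7.99 ± 3.57 (SD, n = 3) before birth and 8.01 at P1, then 6.22 (P8), 4.98 (P14) and 3.92 ± 1.64 (P30). The F test over the 5 ages called it. The log2 difference from E15.5 to P30 was -0.90 ± 0.20 (adjusted p = 0.0023), which is under 2-fold and passed it without E15.5 replicate 1 (-1.04), and no step between neighboring ages was called. *Cacna1f*, the L-type gene of photoreceptor synapses, had 0 to 108 counts per library and reached 1.54 TPM in P14 replicate 3, its highest value. In 7 of the 15 SGN libraries and in every glial library it had 3 counts or fewer.

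*Cacna1h* was the main T-type gene of young SGNs. It was at 36.2, 16.3 and 36.2 TPM in the libraries of E15.5 and at 27.9, 16 and 31.8 in those of P1. Later it was at 4.17, 5.92 and 2.38 (P8), 9.43, 0.588 and 3.09 (P14) and 6.02, 0.977 and 0.340 (P30). All 6 libraries of E15.5 and P1 were above all 9 later ones. It fell by 2.21 ± 0.44 on the log2 scale from P1 to P8 (adjusted p = 0.0041; 0.103 by edgeR and 0.0707 by DESeq2), and by 3.97 ± 0.64 from E15.5 to P30 (adjusted p = 0.00015). P14 replicate 1 and P30 replicate 1 were well above their fellow libraries. Without P30 replicate 1 the E15.5 to P30 value became -5.43, and without P30 replicate 3 it became -3.25. The same libraries had the highest outer hair cell markers of their ages (18.2% and 10.6% of the HC mean) and the highest glial markers (11.2% and 2.68% of the glial mean), and the part of these cells in the *Cacna1h* values was not tested.

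*Cacna1g* and *Cacna1i*, the other T-type genes, were scarce. *Cacna1g* ranged from 0.227 to 2.93 TPM in the 9 SGN libraries from E15.5 to P8 and from 0.0187 to 0.970 in the 6 libraries of P14 and P30. Its log2 difference from E15.5 to P30 was -2.91 ± 1.18 with an adjusted p of 0.058, and this difference was called by edgeR (adjusted p = 0.0302) and DESeq2 (adjusted p = 0.00342). *Cacna1i* had counts in SGNs up to P8 and none later. It had 26, 79 and 44 counts in the P1 libraries, 8, 4 and 18 at P8, and 6, 6 and 0 at E15.5. It had 0 in all 12 libraries of P14 SGNs, P30 SGNs, HCs and glia. A count of 0 there allows up to 0.0805 to 0.289 CPM, a limit that covers counting error only, and the P1 libraries held 0.779, 3.15 and 2.01 CPM. The alpha1 gene outside these members, *Cacna1s* of skeletal muscle, had 168 counts in P8 replicate 1 and 0 to 42 counts in the other libraries.

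The leading share of the alpha1 pool was R-type at E15.5 and P/Q-type from P8 on. Expressed as a share of a library's summed alpha1 TPM, which does not depend on how libraries are scaled, *Cacna1e* held 44.5% ± 6.17 (SD, n = 3) before birth and 23.6% ± 0.895 at P1. It then held 11.2% ± 2.01 (P8), 3.95% ± 0.712 (P14) and 0.963% ± 0.809 (P30), and the ranges of no neighboring ages overlapped. *Cacna1a* held 10.3% ± 0.709 before birth, 16.1% ± 0.384 at P1, 30.6% ± 1.30 in P8 libraries, 42.2% ± 4.93 in those of P14 and 43.4% ± 5.96 in those of P30. Of neighboring ages, only the ranges of P14 and P30 overlapped. *Cacna1d* made up 5.58% ± 1.51 at E15.5 and 19.2% to 21.7% at the later ages as means, while *Cacna1b* stayed between 14.8% and 21%. The Cav2 class as a whole held 54.2% to 79.7% of the pool in every SGN library, with 69.0% to 79.7% at E15.5. The Cav3 share was 12.3% to 19.7% at E15.5, and at P30 it was 1.70% and 2.59% in replicates 3 and 2 and 15.1% in replicate 1. The summed alpha1 TPM ranged from 93.6 to 299 at E15.5 and from 21.1 to 45.3 at P30. These shares by age are descriptions, depend on the deposited gene lengths and were not tested between ages.

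**Figure D4:**
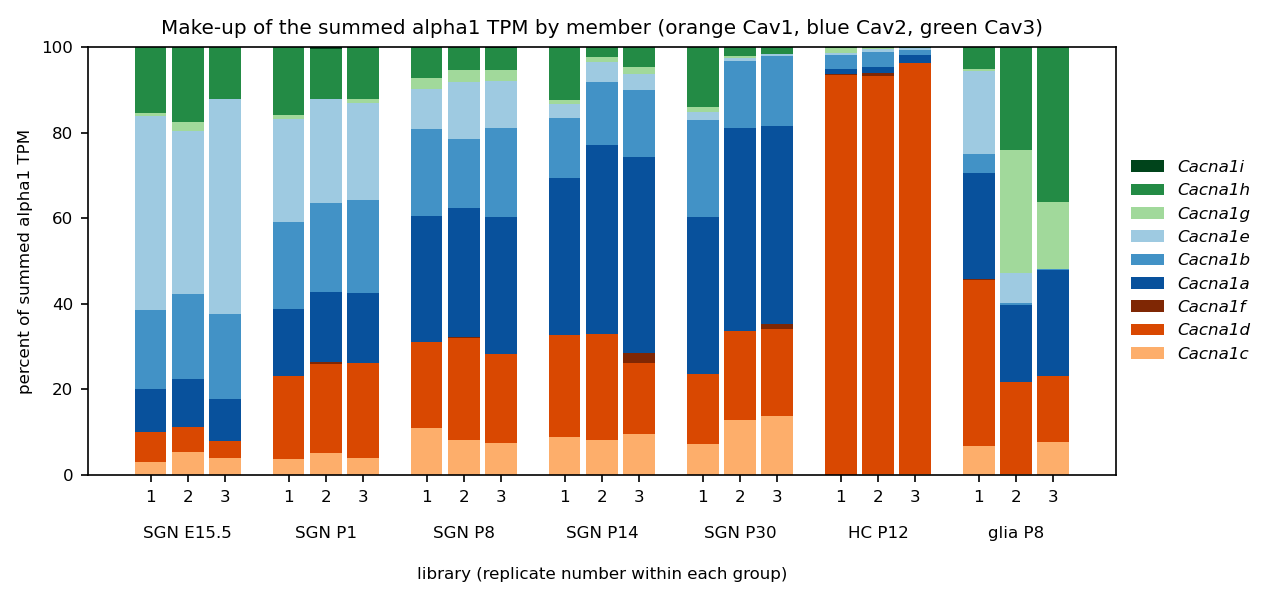
Each bar is 1 library, grouped by cell type and age on the x axis, and the y axis is the percent of the summed TPM of the 9 members that each member makes up (Cav1 genes in orange, Cav2 in blue, Cav3 in green). The bars show *Cacna1e* going from 44.5% to 0.963% and *Cacna1a* from 10.3% to 43.4% between E15.5 and P30, *Cacna1d* at 94.1% in HCs, and glial replicate 1 apart from the other glial bars.

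Nearly all alpha1 RNA of HCs came from a single member. *Cacna1d* stood at 106, 123 and 129 TPM in the HC libraries and made up 94.1% ± 1.65 of the pool (n = 3), while the next member, *Cacna1b*, stood at 3.52, 4.65 and 1.59 TPM and *Cacna1a* at 1.5, 2.03 and 2.26. No HC library had less *Cacna1d* than any SGN or glial library. The mean Cav1 share of the pool was 25.5% in the 15 SGN libraries and 94.6% ± 1.53 in the 3 HC libraries, and the ranges did not overlap (exact permutation test, two-sided, p = 0.00123, the smallest p that the 816 labellings can give; BH adjusted over 6 tests, 0.00245). The Cav2 share was 63.9% in SGNs and 4.68% in HCs (exact permutation p = 0.00123, adjusted 0.00245). The Cav3 share was 10.6% in SGNs and 0.714% in HCs (exact permutation p = 0.00368, adjusted 0.00551), and was lower in each HC library than in any SGN library. These tests, and those against glia below, treat the SGN libraries of 5 ages as interchangeable. The shares changed with age, with Cav1 at 8.02% to 11.3% at E15.5 and 23.7% to 35.3% at P30.

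In the fit of all 21 libraries, where calls needed over 4-fold and an adjusted p under 0.01, 5 of the 7 tested members were called between the mean of the 5 SGN ages and HCs. All 5 were higher in SGNs, where 26.8% of the 17531 genes tested were called and 10.5% were called as higher. The log2 differences were 4.69 ± 0.36 (SE) for *Cacna1a* (adjusted p = 7.1e-10), 3.70 ± 0.49 for *Cacna1b* (2e-06), 5.63 ± 0.81 for *Cacna1c* (5.7e-06), 4.56 ± 1.16 for *Cacna1e* (0.0023) and 5.95 ± 1.29 for *Cacna1h* (0.00055). *Cacna1c* stood at 0.105 to 0.420 TPM in HCs and *Cacna1h* at 0.185 to 0.373. The TPM ranges of *Cacna1b*, *Cacna1e* and *Cacna1h* overlapped between HCs and some SGN libraries. *Cacna1e* was at 0.648 to 0.778 TPM in HCs, above P30 replicates 2 and 3. Leaving out any of the HC libraries took the *Cacna1e* call away (adjusted p = 0.0106 to 0.0159). *Cacna1d* was lower in SGNs, with a log2 difference of -1.90 ± 0.13 (adjusted p = 1.6e-10), which is under 4-fold, and passed 4-fold with the RLE scaling (-2.12) and DESeq2 (-2.09). Its mean TPM in HCs was 119, against age means of 6.94 to 40.4 in SGNs. The TMM factors were 1.35 to 1.38 in HCs and 0.770 to 1.19 in SGNs. On the TMM-scaled reads per kilobase, *Cacna1d* averaged 59.7 in HCs, against age means from 9.81 (P30) to 36.5 (P1) in SGNs. The median log2 difference of the 7 members was 4.56, and that of all genes tested was 0.02.

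Against the SGN age nearest to that of the HCs, P14 SGNs against P12 HCs, 5 members were called, where 23.1% of all genes were. *Cacna1a* (4.65 ± 0.38), *Cacna1b* (2.57 ± 0.55), *Cacna1c* (5.22 ± 0.85) and *Cacna1h* (4.65 ± 1.39) were higher in P14 SGNs, with adjusted p-values of 1e-08, 0.00071, 4.1e-05 and 0.0098. *Cacna1d* was lower, at -2.24 ± 0.22 (adjusted p = 8.5e-08). The ranges of *Cacna1b* overlapped through P14 replicate 2. The *Cacna1h* call sat at the threshold: it was 3.81 with an adjusted p of 0.0397 without P14 replicate 1 and was lost in 18 of the 21 fits that left out a library. *Cacna1e* was at 2.67 ± 1.28 (adjusted p = 0.097), with ranges that did not overlap, and it was called by DESeq2 (adjusted p = 0.0095), with sample quality weights (0.0022) and with only the groups compared (0.000109).

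Glia held little alpha1 RNA of any kind, with a summed TPM of 15.7, 17.3 and 16.4. *Cacna1d* stood at 6.08, 3.73 and 2.54 TPM, *Cacna1a* at 3.89, 3.10 and 4.04, *Cacna1h* at 0.802, 4.17 and 5.93, and *Cacna1g* at 0.0852, 4.96 and 2.59. Replicate 1, the library with the highest *Slc17a6* and outer hair cell markers among glia, had the lowest *Cacna1g* and *Cacna1h* and the highest *Cacna1b*, at 0.707 TPM against 0.0784 and 0.0427. Compared with the mean of the 5 SGN ages, 3 of the 7 members were called and were higher in SGNs, where 24.7% of all genes were called and 14.3% were called as higher. These were *Cacna1a* (2.11 ± 0.23, adjusted p = 2.2e-07), *Cacna1b* (6.25 ± 0.86, adjusted p = 5.1e-06) and *Cacna1c* (3.31 ± 0.62, adjusted p = 0.00016). The *Cacna1b* value was 7.52 without glial replicate 1 and 5.46 without replicate 3. The *Cacna1c* value was 4.17 without replicate 1, 3.97 without replicate 3 and 1.98, no longer 4-fold, without replicate 2. *Cacna1g* was at -0.51 ± 0.93 (adjusted p = 0.68) in the fit of all libraries, and without glial replicate 1 it was called as lower in SGNs (-2.79, adjusted p = 0.000729). *Cacna1d* was 1.30 ± 0.28 higher in SGNs (adjusted p = 0.00074), under 4-fold, and *Cacna1e* was at 3.53 ± 1.17 (adjusted p = 0.017). The *Cacna1e* value was 5.43 without glial replicate 1, 4.24 without replicate 2 and 1.39 without replicate 3, and it was called by DESeq2 (2.03, adjusted p = 0.00393) and without E15.5 replicate 2 (adjusted p = 0.00455). Median differences were 2.11 for the 7 members and 0.22 for all genes.

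At the shared age of P8, the same comparison called 3 members, all higher in SGNs, against 20.9% of all genes in either direction and 13.4% higher in SGNs. They were *Cacna1a* (2.12 ± 0.25, adjusted p = 1.4e-06), *Cacna1b* (6.00 ± 0.88, adjusted p = 1.8e-05) and *Cacna1c* (3.40 ± 0.64, adjusted p = 0.00025), and their ranges did not overlap. Without glial replicates 1, 2 and 3 in turn, *Cacna1c* was at 4.27, 2.07 and 4.07, and without replicates 1 and 3 *Cacna1b* was at 7.27 and 5.21. With P8 SGNs and glia alone in the fit, *Cacna1c* was not called (3.48, adjusted p = 0.013). *Cacna1d* (1.45 ± 0.31, adjusted p = 0.00082) did not reach 4-fold, and *Cacna1e* (3.66 ± 1.19) had an adjusted p of 0.017. Without glial replicates 1, 2 and 3 in turn *Cacna1e* was at 5.56, 4.37 and 1.52, and it was called without E15.5 replicate 2 (adjusted p = 0.00528) or replicate 3 (adjusted p = 0.0093). *Cacna1h* (0.48 ± 0.71) and *Cacna1g* (0.80 ± 1.03) were not separated from glia. These SGN libraries carried glial markers at 9.39% to 17.1% of the glial mean.

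The Cav2 share of the pool was 33.0% ± 13.5 in glia, lower than in any SGN library (exact permutation p = 0.00123, adjusted 0.00245). The Cav1 share, 30.2% ± 13.4, was not separated from the 25.5% of SGNs (exact permutation p = 0.46, adjusted 0.46). The Cav3 share was 5.67% in glial replicate 1 and 51.9% and 52.7% in the other glial libraries, against 1.70% to 19.7% in SGNs (exact permutation p = 0.0159, adjusted 0.0191). The Cav3 difference, -26.2 percentage points, was -18.2 without glial replicate 2 (exact permutation test, adjusted p = 0.115) and was not called without replicate 3 either.

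Between HCs and glia, 3 members were called, against 24.4% of all genes, and 6 were by DESeq2. *Cacna1d* was higher in HCs (3.19 ± 0.29, adjusted p = 6e-08), and *Cacna1a* (-2.58 ± 0.43, adjusted p = 5.8e-05) and *Cacna1h* (-4.80 ± 1.39, adjusted p = 0.0081) were lower. The *Cacna1h* value was -5.97 without glial replicate 1, and its call was lost in 11 of the 21 fits that left out a library. Without glial replicate 1, *Cacna1g* was also called as lower in HCs (-4.66, adjusted p = 0.00146), and without replicate 2 *Cacna1c* was (-3.65, adjusted p = 0.000191). DESeq2 called both of them (*Cacna1g* -3.67, adjusted p = 0.00153; *Cacna1c* -2.89, adjusted p = 3.1e-05) and *Cacna1b* (2.13, adjusted p = 0.001), and edgeR called *Cacna1c* (-3.02, adjusted p = 0.00165). In the limma-voom fit *Cacna1b* was at 2.56 ± 0.98 (adjusted p = 0.039).

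**Figure D5:**
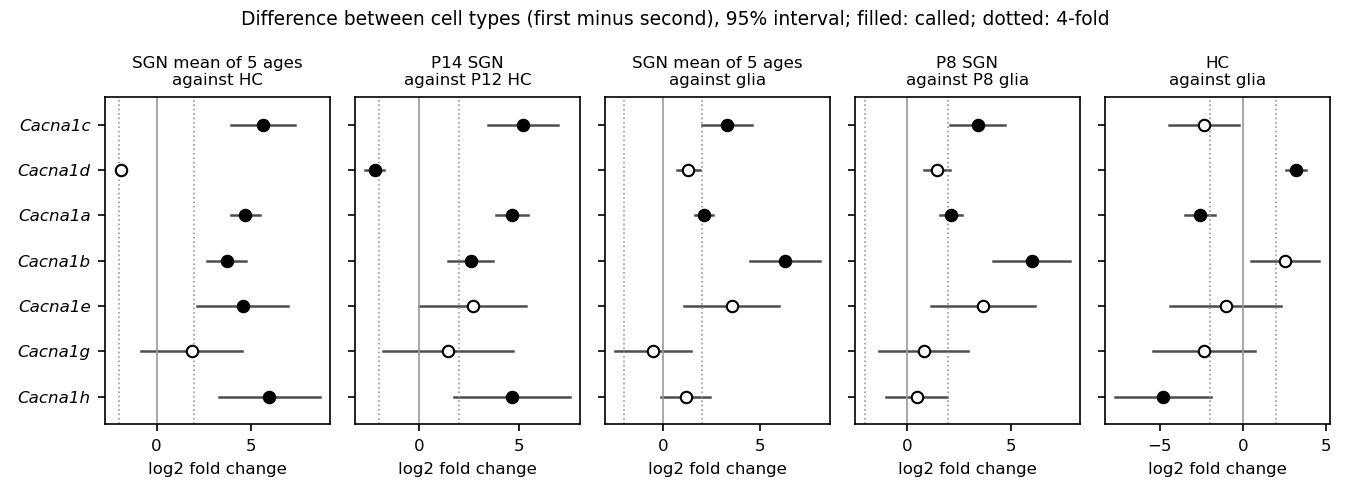
The 7 tested members are listed on the y axis, and each panel gives the log2 difference between 2 cell groups (x axis, first minus second, each panel with its own range) with its 95% interval, filled where called and with dotted lines at 4-fold. In the 4 panels with SGNs, *Cacna1a*, *Cacna1b* and *Cacna1c* lie to the right of 0, and *Cacna1d* lies to the left against HCs and to the right against glia.

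The alpha1 subunit works with partners, and 25 of their genes were measured as a list: the auxiliary beta (*Cacnb*), alpha2delta (*Cacna2d*) and gamma (*Cacng*) subunits, the calcium-binding proteins *Cabp1*, *Cabp2*, *Cabp4* and *Cabp5*, the channel adaptors *Stac* and *Stac2*, and *Rims1*, *Rims2* and *Rimbp2*, whose proteins tether channels at active zones. Several *Cacng* genes are better known as AMPA receptor partners. In the fit of the ages, 19 were tested. From E15.5 to P1, where 8.26% of all genes were called, 2 of them rose: *Cacnb2* (1.93 ± 0.33) and *Rimbp2* (1.00 ± 0.23). *Rimbp2* sat at the 2-fold threshold and was not called in 12 of the 15 fits that left out a library, nor by edgeR (0.99) or DESeq2 (0.94). From P1 to P8, where 7.44% of all genes were called, *Cacng4* (-2.24 ± 0.52) and *Cacna2d1* (-1.02 ± 0.26) fell and *Cabp1* rose (1.22 ± 0.29). None of these 3 was called without P8 replicate 3 (-1.97, -0.88 and 1.01), only *Cacng4* without P1 replicate 3 and only *Cabp1* without P8 replicate 2, and edgeR and DESeq2 called neither *Cacng4* nor *Cacna2d1*. None was called at either of the later steps. From E15.5 to P30, 4 rose and 7 fell, where 34.6% of all genes were called. The largest changes were in *Cacng4* (-7.10 ± 1.54), *Cacng8* (-3.45 ± 1.27) and *Cacna2d1* (-2.97 ± 0.37). The median log2 fold change of the list from E15.5 to P30 was 0.57, against -0.01 for all genes, and it differed in sign from that of the 7 alpha1 subunits (-2.31). From P1 to P30, 3 partners rose and 4 fell, where 19.6% of all genes were called. Over that span the medians shared a sign, at -0.58 for the list, -1.92 for the 7 subunits and -0.09 for all genes. Over the 4 successive steps the median of the list was 0.25, -0.29, 0.23 and -0.23.

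Between SGNs and HCs, 16 of 21 tested partners were called, with 12 higher in SGNs and 4 lower, where 26.8% of all genes were called. Those higher in SGNs included *Rims1*, *Stac2* (8.97 ± 1.15) and *Cacng2* (7.75 ± 0.94). *Rims1* had 2, 0 and 0 counts in the HC libraries, so the size of its difference is not given. *Stac2* had 22, 10 and 12 counts there and *Cacng2* had 4, 2 and 54. The median of the list was 2.65, against 0.02 for all genes. *Rims1* had a mean of 28.6 TPM in SGNs. Against glia, 15 were higher in SGNs and 1 was lower, where 24.7% of all genes were called. The list had a median of 3.38 against 0.22, led by *Cacng2* (6.55 ± 0.91), *Cacng5* (5.96 ± 0.83) and *Rims1* (5.51 ± 0.74). Between HCs and glia, 7 were higher in HCs and 2 lower, where 24.4% of all genes were called. Among them were *Cacng4* (-6.67 ± 1.64, with 8, 10 and 0 counts in HCs), *Rims1* (lower in HCs) and *Cabp2* (6.06 ± 0.57). *Cabp2* encodes a calcium-binding protein of hair cells and is a deafness gene. It averaged 679 TPM in HCs and 5.34 in SGNs.

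Across the 21 libraries, the genes with the pattern most like each tested member were found by Pearson's r of log2(TPM + 1), among 14507 to 14511 tested genes whose mean reached 5 TPM in a group. The libraries share groups and depths, so the values are given as descriptions. *Cacna1a* was followed most closely by *Unc5d* (0.972), *Tmem132e* (0.972) and *Rims1* (0.969), *Cacna1b* by *Gprin1* (0.969), *Lin28b* (0.961) and *Pitpnm3* (0.955), and *Cacna1c* by *Lrfn5* (0.972), *Cacna1a* (0.963) and *Tmem132e* (0.959). For *Cacna1d* they were *Gtf2ird1* (0.965), *Ica1l* (0.960) and *Rwdd3* (0.956), and for *Cacna1e* they were *Shisa7* (0.960), *Dcx* (0.957) and *Sox11* (0.954). *Dcx* and *Sox11* are markers of immature neurons. *Cacna1h* was closest to *Alcam* (0.947), *Gm11223* (0.940) and *Stmn1* (0.938), and *Cacna1g*, the scarcest of the tested members, reached no more than 0.730, with *Hexim2*.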

How the data were processed

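Gene counts were used as the authors deposited them, in a table of raw featureCounts values for 52550 Ensembl genes after demultiplexing with CASAVA and STAR 2.4.0i alignment to mm10, with GENCODE vM15 genes per the study's methods. Amplified cDNA carried no molecular identifiers, so limits on counts cover counting error only. In the median library 67.9% of counts from 1 to 20 were even numbers, and paired-read settings of the counting are not given in the sources used here. Symbols (52403 genes), gene positions and sequences came from GENCODE M21 on GRCm38, and TPM used the deposited gene lengths. A filter worded as in the study's methods kept genes over 1 CPM in all replicates of a group. It kept 17531 over all libraries and 15113 over the SGN libraries. The study's text gives a larger set for each, with 17531 for the set without HCs and glia. The reason for the gap was not established. Counts were scaled by TMM and tested with limma-voom (limma 3.58.1, edgeR 4.0.16, R 4.3.3), with BH adjustment over all genes tested. Calls needed an adjusted p under 0.05 and over 2-fold between ages, and under 0.01 and over 4-fold between cell types. The intervals are 95% intervals of the fit. Class shares of TPM were compared by exact permutation. Alternatives were RLE factors, no filter, edgeR's quasi-likelihood test, DESeq2 1.42.0, sample quality weights, a replicate block, fits of only the groups compared, and leaving out each library. Deviations of same-numbered replicates from their group means correlated between P14 and P30 (r = 0.393, 0.244 and 0.104 for replicates 1, 2 and 3). They also did between P8 and P30 (0.396, 0.188 and 0.162). Values were positive, though not all over 0.1, between P1 and P8 (0.371, 0.0663 and 0.163) and P8 and P14 (0.337, 0.145 and 0.0284). The same held between P1 and P14 (0.262, 0.107 and 0.0977) and between P1 and P30 (0.342, 0.0798 and 0.112). Between E15.5 and P1 they were -0.0618, -0.0686 and 0.0631. Where the replicate numbers come from is not stated. The scripts were tested on simulated data. Members, partner genes and markers were chosen with earlier results of these data known. Named partners were the 3 called genes of largest change, at most, in a comparison, and *Cacna1s* was named as a level only. The summed level of the SGN markers is not reported here.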

Additional observations from a re-analysis of the deposited data

How the results depend on the processing

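Of the counts of alpha1 subunits called, 2 at E15.5 to P1 became 1 by edgeR and by DESeq2, 1 at P8 to P14 became 0 by edgeR and with no filter on low counts and ranged from 0 to 1 when each library was left out, 0 at P14 to P30 became 1 with sample quality weights, and 3 between HCs and glia became 6 by DESeq2. The other counts of subunits stayed within 1.5 times. When each library was left out, the difference in Cav1 share between SGNs and glia ranged from -8.89 to 3.06 percentage points, reversing without glial replicate 1, and that in Cav3 share from -41.7 to -18.2. The replicate block moved *Cacna1g* from E15.5 to P30 to -2.81 with an adjusted p of 0.0447, called, and changed no other member's call. The fall of *Cacna1d* from P1 to P8 was just under 2-fold with no filter (-0.998) and with quality weights (-0.99). Over the same step, the fall of *Cacna1h* was not called by edgeR (adjusted p = 0.103) or DESeq2 (adjusted p = 0.0707).

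No fold change that changed direction was called in the main fit or in a setting that reversed it. Of these, *Cacna1g* between SGNs and glia was called without glial replicate 1 (-2.79), in the direction of the main fit. *Cacna1c* from P1 to P8, at 0.00316, became -0.0107 with RLE factors, -0.00296 by edgeR, -0.0169 by DESeq2, -0.107 with quality weights, -0.00143 with the replicate block and -0.016 with only the groups compared, and ranged from -0.12 to 0.084 when each library was left out. *Cacna1b* from P14 to P30 became -0.0256 with quality weights and ranged from -0.23 to 0.38. Between P8 SGNs and P8 glia, *Cacna1g* became -0.96 by edgeR and -1.12 by DESeq2 and ranged from -1.48 to 1.93, and *Cacna1h* became -0.25 and -0.41 and ranged from -0.69 to 1.05. Leaving out a library alone gave ranges of -0.029 to 0.25 (*Cacna1a*) and -1.52 to 0.17 (*Cacna1g*) from E15.5 to P1, of -0.013 to 0.24 (*Cacna1c*) and -1.91 to 0.38 (*Cacna1h*) from P14 to P30, of -2.79 to 0.62 (*Cacna1g*) and -0.011 to 1.73 (*Cacna1h*) between SGNs and glia, and of -3.18 to 0.86 (*Cacna1e*) between HCs and glia. The causes were not tested.

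Over all genes, 1248 calls at E15.5 to P1 became 552 with quality weights and 576 with only the groups compared, and 1124 at P1 to P8 became 649 by edgeR. The 81 calls at P8 to P14 became 34 by edgeR, 198 by DESeq2, 174 with quality weights and 146 with the block, and the 9 at P14 to P30 became 15 with no filter, 97 by DESeq2, 110 with quality weights, 23 with the block and 2 with only the groups compared. Quality weights gave 2017 in place of 4326 between SGNs and glia, 1942 in place of 3662 at P8, and 2226 in place of 4272 between HCs and glia. *Cacna1f* and *Cacna1i* did not pass the filter on low counts and were not tested. The counts of partners called ranged from 1 to 2 at E15.5 to P1 (2 with all libraries) and from 0 to 4 at P1 to P8 (3) when each library was left out.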
